A study of Mus musculus with 78 samples.

Results

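The genes of the cytosolic ribosome were followed in RNA-seq libraries of early mouse embryos. The members are the genes whose symbol starts with Rpl (ribosomal protein of the large subunit) or Rps (small subunit) followed by a digit, without names that hold -ps (5 pseudogene rows) and without the 10 names starting Rps6k, which are kinases. This left 82 members of 22586 genes in the table of embryos grown in vivo. They comprise 43 canonical large subunit genes, 30 canonical small subunit genes, 8 paralogs (Rpl3l, Rpl7l1, Rpl10l, Rpl22l1, Rpl36al, Rpl39l, Rps4y2 and Rps27l) and Rps19bp1, which encodes a protein that binds Rps19 and is not part of the ribosome. The name rule misses ribosomal proteins with no such name, among them Rplp0, Rplp1, Rplp2, Rpsa and Fau.

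A cytosolic ribosome joins a small subunit, which reads the mRNA, to a large subunit, which forms peptide bonds and feeds the new chain into an exit tunnel. Each canonical protein is present in a single copy per ribosome, and in most cells its mRNA is among the most abundant. These mRNAs usually begin with a C followed by a run of pyrimidines, the 5′ terminal oligopyrimidine (TOP) tract, through which mTOR signalling and Larp1 control their translation. Several members have duplicated copies, some of them known mainly from the germ line.

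The strain is given as C57BL/6N x DBA/2N for every group, and no engineered allele is named. In vivo, 11 groups of 2 libraries were measured, namely inner cell mass (ICM) and trophectoderm (TE) at E3.5, ICM at E4.0, epiblast (Epi) and visceral endoderm (VE) at E5.5 and E6.5, and ectoderm (Ect), primitive streak (PS), mesoderm (Mes) and endoderm (End) at E7.5. E3.5 and E4.0 embryos came from superovulated mothers, and their tissues were lysed directly after immunosurgery. E5.5 to E7.5 embryos came from natural matings, and RNA was purified on columns, so stage and preparation cannot be told apart between E4.0 and E5.5. Cultured embryos are stated to have been flushed at E4.5 and were grown in CMRL 1066 medium with 20% fetal bovine serum. The column headers of the 1- and 2-day libraries carry the mark of E4.0 instead, and which day applies is not known. After 4 days Epi and VE were dissected, and after 1 and 2 days the samples are labelled whole embryo although the protocol names immunosurgery. The labels do not say whether the 2 libraries of a group came from separate embryos or litters, so p-values measure the spread between these libraries, which may be technical.

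Values are FPKM (fragments per kilobase of transcript, scaled to the mapped fragments of the library), a level per transcript length that allows genes to be compared, and the sequencing depth behind them is unknown. The libraries of 2 groups disagreed most. In Ect replicate 2 all 73 canonical members were higher than in Ect replicate 1, with a median 2.27-fold and at least 2-fold for 43 of them, while the median of all genes was lower (-0.62 on log2(FPKM+1)). E6.5 Epi replicate 2 was above replicate 1 for 68 of 73 canonical members, with a median of 1.84-fold. The labels give no difference between the libraries of either pair. Between 8457 and 10417 genes reached 1 FPKM per in vivo library, with 9818 in Ect replicate 1 and 8893 in Ect replicate 2.

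Tissue labels were checked on marker genes. The 5 ICM and epiblast markers summed to 875 to 1132 FPKM in E4.0 ICM, E5.5 Epi and E6.5 Epi, and to 27.3 to 83.7 in E3.5 TE. The 7 endoderm markers summed to at least 2932 FPKM in the in vivo VE and End libraries and to at most 132 elsewhere in vivo. In the whole embryos cultured for 2 days, the 6 TE markers summed to 3542 FPKM in replicate 1 and 1537 in replicate 2, and the ICM and epiblast markers to 295 and 892. In bulk libraries, fewer cells of a type and less RNA per cell cannot be told apart.

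The starts of some members named below are shown first, since the TOP tract is the sequence feature these genes are known to share. Each line is a 30-base window of the mouse genome (RefSeq, build GRCm38.p6) around 1 annotated start, 5′ to 3′ on the gene's strand. Capitals mark the start base or, where a C at the start is followed by at least 4 pyrimidines, that whole run. Other members called below are not shown. Among them Rps28, Rpl4, Rpl34, Rps19, Rpl7l1 and Rpl22 hold no such run at an annotated start, while Rpl14 holds such a run. The lines are thus not a sample of the members. The first 4 hold such a run and the next 6 do not.
Rps21 (chr2:180257364-180257393, + strand): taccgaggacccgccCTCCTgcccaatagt
Rpl38 (chr11:114668565-114668594, + strand): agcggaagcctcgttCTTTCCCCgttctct
Rps27 (chr3:90213634-90213663, - strand): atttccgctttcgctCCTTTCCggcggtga
Rpl28 (chr7:4792950-4792979, + strand): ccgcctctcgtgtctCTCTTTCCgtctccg
Rpl41 (chr10:128549154-128549183, - strand): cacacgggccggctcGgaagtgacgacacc
Rpl26 (chr11:68901551-68901580, + strand): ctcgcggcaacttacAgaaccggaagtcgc
Rpl12 (chr2:32961697-32961726, + strand): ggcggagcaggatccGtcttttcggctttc
Rps12 (chr10:23787195-23787224, - strand): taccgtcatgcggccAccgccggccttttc
Rpl39l (chr16:10170213-10170242, + strand): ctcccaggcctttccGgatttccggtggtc
Rpl10l (chr12:66284387-66284416, - strand): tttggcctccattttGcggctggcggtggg

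Of the 73 canonical members 54 matched a RefSeq promoter, and 12 of these (22.2%) had a TOP tract at an annotated start, against 813 of 27025 genes (3.01%). None of the 8 matched paralogs and Rps19bp1, and none of 67 mitochondrial ribosomal protein genes, had one there. Allowing the tract to begin within 5 bases of the start gave 26 of 54 canonical members (48.1%) and 21.2% of all genes. Rps21 has 2 annotated starts in these tables and holds the tract at 1 of them. Rps21 and Rpl26, which rose most from E3.5 to E4.0 below, differ here, since the Rpl26 start holds no tract. A match of letters is a description of the annotated start and not a measured 5′ end.

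Canonical members were abundant in every tissue. Over the 22 in vivo libraries the mean level was at least 100 FPKM for 62 of 73 and at least 1000 FPKM for 10, with a median of 254 FPKM. Rpl41, which encodes the shortest protein of the ribosome, was among the most abundant, from 721 FPKM in E3.5 TE replicate 2 to 7775 in Ect replicate 2. Rpl32, Rps9 and Rpl4 were also among the 6 highest by mean. At the other end stood Rpl21, Rps12, Rps15a, Rpl28, Rpl12 and Rpl31, of which Rpl21 ranged from 5.61 to 38.6 FPKM and Rps15a from 9.91 to 90.9 FPKM. Such low levels for single members next to others above 1000 FPKM show that the deposited values do not follow the equal stoichiometry of the proteins. Many members have processed pseudogenes and near-identical copies in the genome, and how reads shared with them were assigned is not given in the sources used here, so the level of any single member is uncertain.

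Members moved together to differing degrees. Across the 22 in vivo libraries, a canonical member's log2(FPKM+1) had a median Pearson correlation of 0.624 with the median of the other canonical members, from 0.135 to 0.944, and 27 of 73 were above 0.7. These correlations share libraries and normalization and are given as a description.

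The share of the FPKM sum held by all 82 members, a measure of how much of the mRNA pool encodes ribosomal proteins, ran from 5.61% to 17.0% in vivo. E3.5 ICM held 8.56% and 8.92% in replicates 1 and 2, and E3.5 TE held 6.80% and 5.61%. E4.0 ICM held 9.93% and 10.96%, close to E5.5 Epi with 10.97% and 10.5%. E5.5 VE held 13.5% and 12.1%, above every other in vivo library but Ect replicate 2. At E6.5 the share was 7.85% and 10.8% in Epi and 7.68% and 6.10% in VE. At E7.5 Ect held 7.92% and 17.0%, while PS, Mes and End all lay between 6.75% and 8.07%. A permutation test of the F statistic over the 11 in vivo groups gave F = 2.41 and p = 0.087, which did not reach 0.05. The SD within a group was 6.41 in Ect, and the next highest were 2.08 in E6.5 Epi and 1.12 in E6.5 VE. The test was not repeated without Ect, so it does not show that the other groups are alike.

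**Figure D1:**
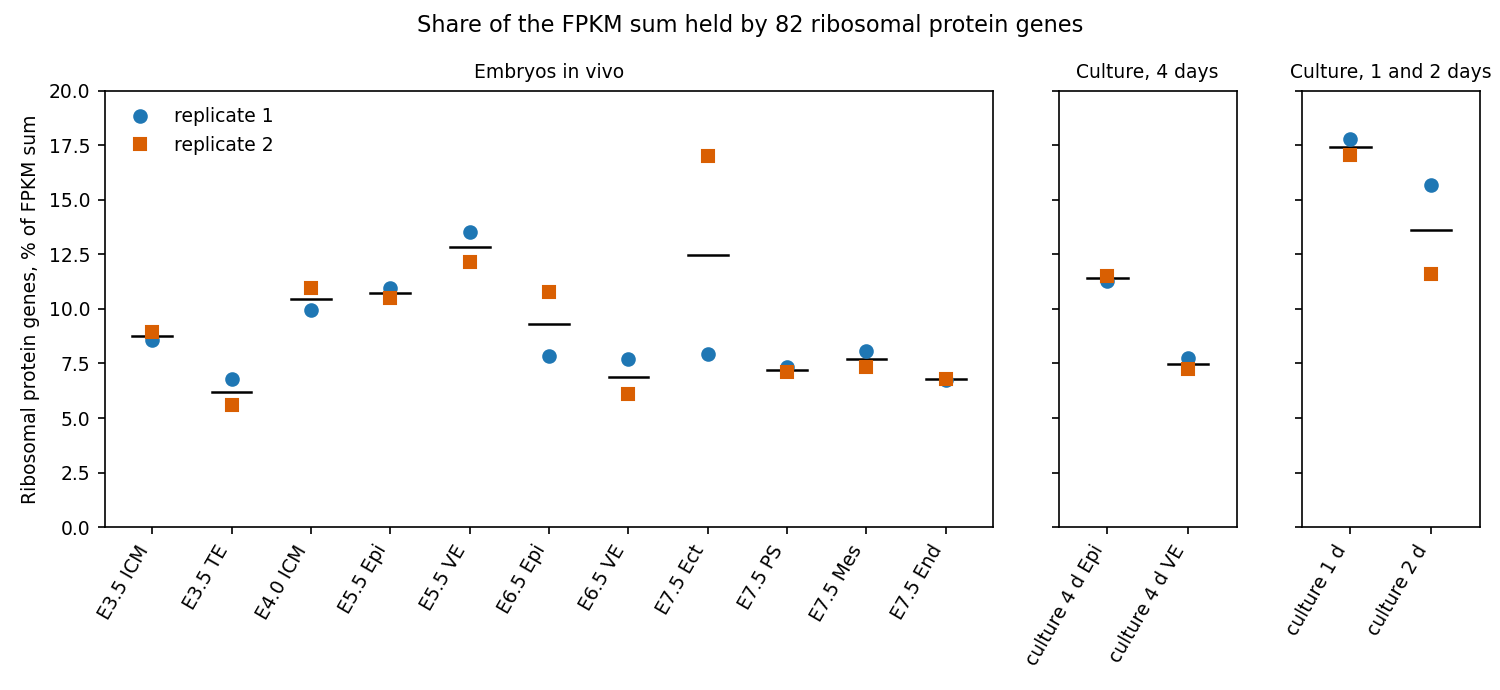
Percent of each library's FPKM sum held by the 82 ribosomal protein genes (vertical axis) by group (horizontal axis), in 1 panel per deposited table, with circles for replicate 1, squares for replicate 2 and a line at their mean. The Ect libraries at 7.92% and 17.0% lie farthest apart, and VE falls from 13.5% and 12.1% at E5.5 to 7.68% and 6.10% at E6.5.

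VE showed the largest difference in share among the in vivo comparisons. The mean dropped by 5.94 percentage points from E5.5 (12.8 ± 0.987, SD, n = 2) to E6.5 (6.89 ± 1.12, SD, n = 2), with no overlap. At E5.5 the share was higher in VE than in Epi by 2.10 points, and at E6.5 Epi was higher than VE by 2.43 points. The share divides by the FPKM sum, which was 272055 and 329462 in E5.5 VE, the former the lowest in vivo, against 438472 and 374468 in E5.5 Epi and 455957 and 445769 in E6.5 VE. The mean of the median canonical FPKM was 232 in E5.5 VE, 284 in E5.5 Epi and 217 in E6.5 VE, so on that scale E5.5 VE was not above Epi and the step in VE was small. Rpl41 alone took part of this: without it the drop in VE was 4.50 points and the excess of E5.5 VE over Epi 0.981 points. Exact permutation of 2 libraries against 2 cannot give a p below 0.33, the value found for each of these differences.

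In cultured embryos the share was 11.3% and 11.5% in Epi after 4 days against 7.73% and 7.26% in VE, a difference of 3.91 points where the pooled SD was 0.267. Whole embryos held 17.8% and 17.1% after 1 day and 15.7% and 11.6% after 2 days. The 3 tables were made separately, so levels are compared only within a table.

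A small set of members departed from the rest in particular libraries. A member was counted as outlying in a library when its log2(FPKM+1), taken relative to the library's median canonical member, lay 2 or more (4-fold) from that gene's median over the same table. There were 50 such pairs of member and library in vivo, from 11 of 73 members, and the 4 libraries of E3.5 held 26 of them. After 4 days of culture 2 pairs were outlying, and after 1 or 2 days none of the 72 members scored was. Genes averaging under 10 FPKM over a table were not scored, which left Rpl26 out of the 1- and 2-day table. Rpl26 had 0.00914 and 27.7 FPKM in replicates 1 and 2 after 1 day, and 0.00609 and 0.00851 after 2 days. The absence of outlying pairs there thus does not cover Rpl26, whose 1-day libraries disagreed. In 32 pairs of the 52 the other library of the group was also outlying on the same side, and in 11 it lay on that side by 1 to 2. In 6 it was under 1 away, and in 3 the libraries lay on opposite sides.

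The E3.5 blastocyst had its own profile. Rps21, a small subunit protein, was at 51.9 and 52.9 FPKM in E3.5 ICM and 66.4 and 53.3 in E3.5 TE, and its lowest, median and highest values over the 18 later libraries were 813, 1358 and 2733. Rpl26, which sits beside the exit tunnel, was at 9.25 and 16.5 FPKM in ICM and 11.8 and 8.38e-05 in TE, against 91.9, 370 and 667 later. Rps28 was at 51.1 and 56.1 FPKM in ICM and 112 and 37.0 in TE, against 170, 515 and 2400 later. None of these ranges overlapped. Rpl38, a large subunit protein known for its effect on Hox mRNA translation, had 70.1 and 83.7 FPKM in ICM and 78.6 and 42.2 in TE, against 247, 470 and 804 later, again with no overlap.

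Other members ran the opposite way. Rps29 had 1133 and 1249 FPKM in E3.5 ICM and 951 and 844 in TE, while the later libraries ranged from 23.1 to 287 with a median of 61.4. Rpl12, part of the base of the large subunit stalk, had 183 and 184 FPKM in ICM and 99.8 and 105 in TE, against at most 53.8 later. All 4 E3.5 libraries were above every later one for both genes. Rpl34 was at 320 and 293 FPKM in ICM and 317 and 190 in TE, and later from 57.5 to 251, so TE replicate 2 overlapped the later range.

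**Figure D2:**
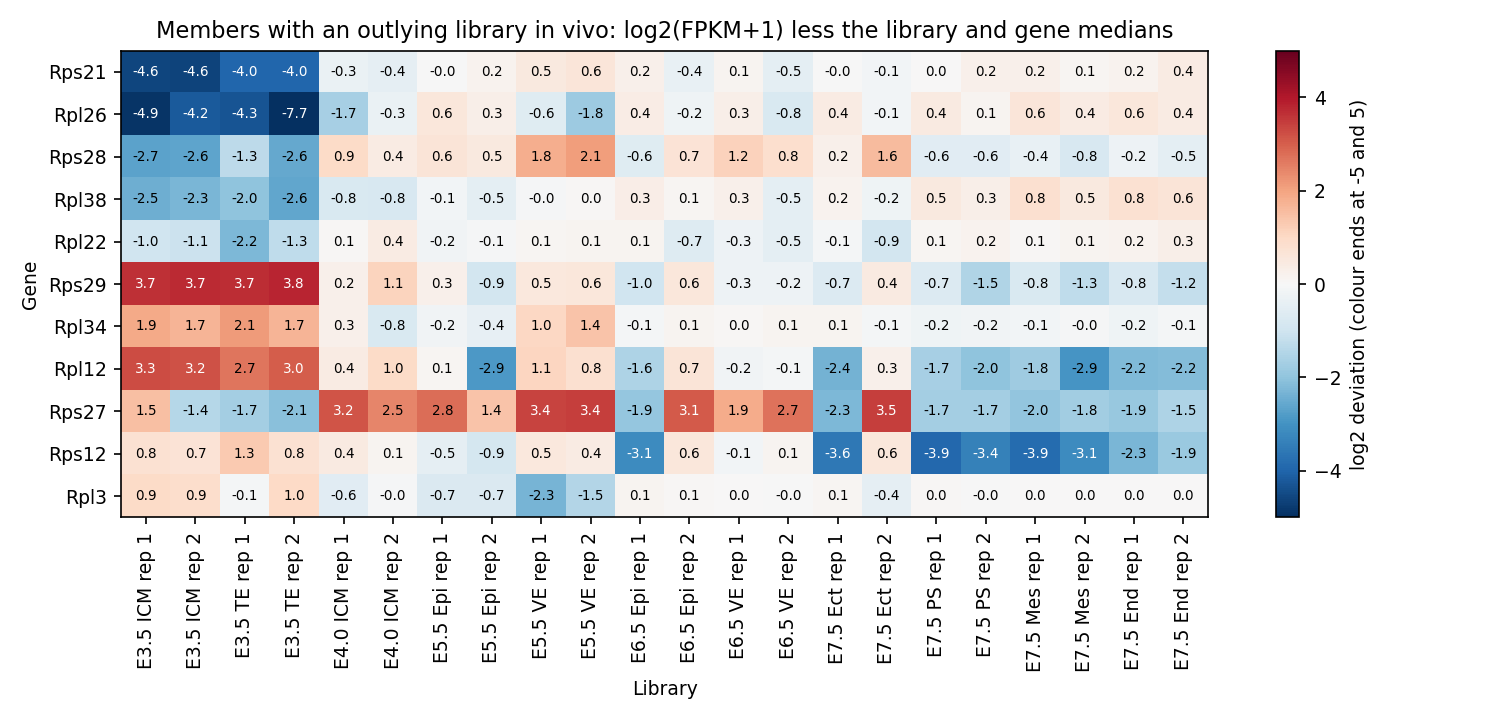
Each cell gives the log2(FPKM+1) of a member (rows) in an in vivo library (columns), less that library's median over the 73 canonical members and then less the gene's own median over the 22 libraries. Blue is low and red is high. The 4 E3.5 libraries share blue for Rps21, Rpl26 and Rpl38 and red for Rps29 and Rpl12, and Rps27 and Rps12 split the 2 libraries of E6.5 Epi and of Ect.

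In the ICM, Rps21, Rpl26, Rps28 and Rpl38 rose from E3.5 to E4.0, and Rps29, Rpl34 and Rps13 fell. By limma on log2(FPKM+1), with all 15 groups in 1 fit and a call at an adjusted p under 0.05 and at least 2-fold, 15 of 81 tested members rose and 3 fell. Of all 13493 genes tested 15.8% rose and 4.8% fell, shares close to those of the members. With quantile normalization 11 members rose and 7 fell, beside 8.14% and 8.4% of all genes. Rps21 rose from 52.4 ± 0.684 to 1176 ± 137 FPKM (SD, n = 2), a log2 fold of 4.46 ± 0.31 (SE) with an adjusted p of 2.57e-09. Rps28 rose by 3.57 and Rpl26 by 3.79 on the log2 scale. Rpl38, Rps26, Rps20 and Rps23, all well above 100 FPKM at E4.0, rose by 1.83, 1.79, 1.65 and 1.64.

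Rps29 fell by 2.77, Rpl34 by 1.80 and Rps13 by 1.21 on the log2 scale. For canonical members the median was 0.44, beside 0.27 for all genes. Rps27l, the paralog of Rps27, rose from 573 and 583 to 1104 and 1528 FPKM. The count was 10 without E3.5 ICM replicate 1, 11 without E3.5 ICM replicate 2 and 9 without E4.0 ICM replicate 2, and Rps21, Rps28 and Rpl38 were called in each. E3.5 and E4.0 ICM were prepared by the same stated protocol, and the labels name no sequencing batch, whose part was not tested. The 6 TE markers summed to 182 to 266 FPKM in E3.5 ICM and 9.37 to 22.2 in E4.0 ICM. The part of this difference in the result was not tested. The TE libraries at E3.5 showed the same low Rps21, Rpl26, Rps28 and Rpl38 and high Rps29.

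A second set of members divided the later libraries. Rps12, a small subunit protein, lay between 0.101 and 3.24 FPKM in all 6 libraries of PS, Mes and End, with a median of 0.633. In E6.5 Epi it was at 0.871 in replicate 1 and 45.8 in replicate 2, and in Ect at 0.591 and 64.7. Replicate 1 of both groups lay within the range of PS, Mes and End, and replicate 2 lay above it. E6.5 VE had 16.7 and 17.5 FPKM, and the E5.5 libraries 9.65 to 25.9.

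Rps27, whose protein carries a zinc finger, gave the same division on a wider scale. Its level was 8.35 to 10.4 FPKM in PS, Mes and End, 8.45 and 563 in E6.5 Epi, 7.44 and 1052 in Ect and 149 and 233 in E6.5 VE. Both pairs differed more for Rps27 than for any other canonical member. Its level at E3.5 was low in ICM replicate 2 and both TE libraries, from 5.34 to 14.7 FPKM, and 110 in ICM replicate 1. Rpl12 followed with 1.22 to 4.46 FPKM in PS, Mes and End, 4.83 and 49.9 in E6.5 Epi and 2.77 and 53.8 in Ect. It was also low in E5.5 Epi replicate 2 at 1.78 FPKM, where replicate 1 had 29.3. Rpl21 and Rpl28, 2 more of the lowest members, had 7.48 and 27.4, and 15.4 and 79.6 FPKM in E6.5 Epi replicates 1 and 2. In Ect they had 9.30 and 30.8, and 11.6 and 90.001 FPKM.

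**Figure D3:**
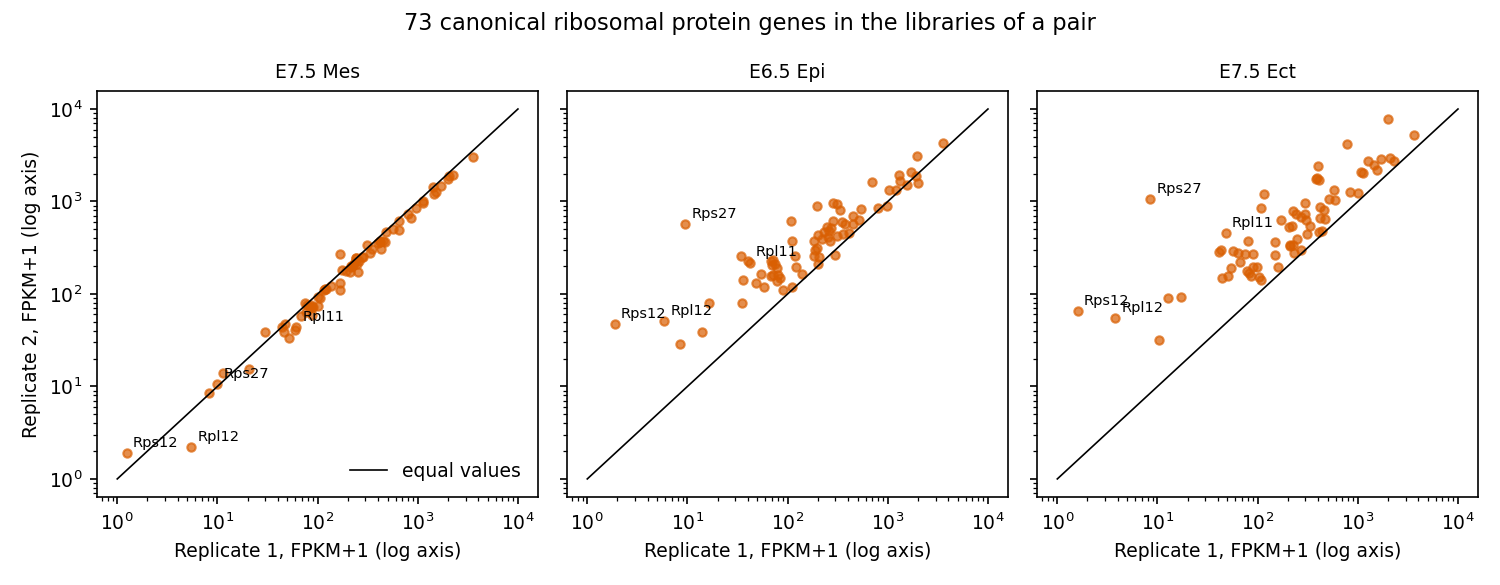
FPKM+1 of the 73 canonical members in replicate 2 (vertical, log axis) against replicate 1 (horizontal, log axis) for Mes, E6.5 Epi and Ect, with a line of equal values. Mes points follow the line, while 68 of 73 points in E6.5 Epi and all 73 in Ect lie above it, Rps27 and Rps12 farthest.

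Comparisons that use these pairs called few members. Between E6.5 and E5.5 Epi limma called 0 of 81 members, where 0.978% of all genes were called, and 3 had an unadjusted p under 0.05 (9.46% of all genes), all lower at E6.5 and all paralogs. Between Ect and E6.5 Epi 0 were called (1.07% of all genes) and 2 had an unadjusted p under 0.05 (9.4% of all genes). By the call rule, members passed between Ect and E6.5 Epi without Ect replicate 1, all higher in Ect. Without Ect replicate 2 and E6.5 Epi replicate 1 the only call was lower in Ect. The share of all genes called in these fits is not given.

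Between PS and E6.5 Epi only Rps4y2 was called, lower in PS by 1.21 on the log2 scale (145 and 126 against 297 and 334 FPKM, adjusted p = 0.0113), where 1.18% of all genes were lower and 2.56% higher. The canonical median was -0.56 beside 0.00 for all genes. With libraries left out, the Rps4y2 value ran from -1.32 to -1.11, and its call was lost without E6.5 Epi replicate 2, PS replicate 1 or PS replicate 2. Without Ect replicate 2 and E6.5 Epi replicate 1 more members were called, all lower in PS. The share of all genes called in that fit is not given.

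The later steps gave no call. Between Mes and PS limma called 0 members (3.38% of all genes), with 0 at an unadjusted p under 0.05 (8.9% of all genes). Between End and E6.5 VE 0 were called (4.26% of all genes), with 8 at an unadjusted p under 0.05 (12% of all genes), 7 of them lower in End. A fit of these 2 groups alone called 10, all lower in End. The share of all genes called in that fit is not given, so the 10 are not set against a background.

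Blastocyst lineages differed in few members. E3.5 ICM was above TE for Rpl22 (55.3 and 55.9 against 19.0 and 30.3 FPKM, log2 fold 1.18, adjusted p = 0.0140) and for Rpl7l1 (79.2 and 72.7 against 26.2 and 45.7 FPKM, log2 fold 1.11, adjusted p = 0.00870). Rpl22 binds RNA outside the ribosome as well, and Rpl7l1 is a paralog of Rpl7. These were the 2 members called, where 9.54% of all genes were higher in ICM and 7.75% in TE. The median canonical difference was 0.42 in favour of ICM, beside 0.02 for all genes. With an adjusted p alone 6 members passed, all higher in ICM, as did 19.9% of all genes. The count was 0 without E3.5 ICM replicate 1, 1 without ICM replicate 2 or TE replicate 1, and 5 without TE replicate 2. It was 4 without Ect replicate 2 and E6.5 Epi replicate 1.

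From E4.0 ICM to E5.5 Epi 1 member rose, Rpl30, from 170 and 139 to 399 and 301 FPKM (log2 fold 1.17, adjusted p = 0.0214), where 8.67% of all genes rose and 8.94% fell. With an adjusted p alone 3 members rose, beside 20.5% of all genes that changed. The count was 0 without E4.0 ICM replicate 2 and 3 without E4.0 ICM replicate 1. Into VE more members changed: 2 rose and 11 fell, where 9.66% of all genes rose and 25.7% fell. With quantile normalization, which gives every library the same distribution, 5 members rose and 9 fell, beside 15.4% and 15.8% of all genes. Rpl3 and Rpl4, large subunit proteins that reach the peptidyl transferase centre and the exit tunnel, fell by 1.80 and 1.67 on the log2 scale. Rps3a1 fell by 1.69 and Rps3, at the mRNA entry site, by 1.18. The paralogs Rpl10l, Rpl39l, Rpl7l1 and Rps4y2 fell by 4.05, 2.79, 1.72 and 1.43. The Rpl39l value was -1.32 without E5.5 VE replicate 1 and -4.25 without E5.5 VE replicate 2, and its call was lost without the former and without E4.0 ICM replicate 2.

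Rpl41 and Rpl34 rose instead, by 1.42 and 1.27. In that comparison the canonical median was 0.02, beside -0.31 for all genes. Without E4.0 ICM replicate 1 more members were called, with no share of all genes given for that fit. A fit of the 2 groups alone, with fewer libraries to set the spread, called 2.

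Epi and VE were compared directly at E5.5 and E6.5. At E5.5, 10 members were higher in Epi and 2 in VE, where 27.1% of all genes were higher in Epi and 9.6% in VE. With an adjusted p alone 19 members passed, beside 42.8% of all genes. Rpl4 was at 1666 and 1697 FPKM in Epi against 487 and 699 in VE, a log2 fold of 1.53 ± 0.21 (SE, adjusted p = 1.43e-05). Rpl3 was at 198 and 144 against 44.1 and 85.8 FPKM. The Epi libraries were above both VE libraries for each.

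Rps3, Rps2, Rpl8 and Rps3a1 were higher in Epi by 1.17, 1.14, 1.12 and 1.02 on the log2 scale, and the paralogs Rpl10l, Rpl7l1 and Rps4y2 by 2.78, 1.95 and 1.69. Rpl34 (181 and 251 FPKM in VE, 113 and 69.1 in Epi) and Rps16 (207 and 213 in VE, 143 and 61.0 in Epi) were higher in VE. The canonical median was 0.00, beside 0.36 for all genes. With quantile normalization 5 were higher in Epi and 6 in VE, beside 17.4% and 15.9% of all genes. Without E5.5 VE replicate 1 the count was 5, and in a fit of the 2 groups alone 5. At E6.5 limma called 0 members between Epi and VE, where 16.5% of all genes were called, with 9 at an unadjusted p under 0.05 (30.4% of all genes), all higher in Epi. With an adjusted p alone 2 members passed, beside 19.2% of all genes, and without E6.5 VE replicate 1 the count was 1.

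Whether the Epi to VE difference itself changed between the stages was tested as an interaction, which called 1 member in the direction of a higher value at E6.5 and 3 in the other, where 0.793% and 5.28% of all genes were called. For Rpl7l1 the difference changed by -1.57 on the log2 scale, for Rps4y2 by -1.47 and for Rpl4 by -1.07, so the excess in Epi was smaller at E6.5. With quantile normalization 1 member was called in the first direction and 0 in the other, beside 2.02% and 0.919% of all genes. With a replicate block the adjusted p for Rpl4 was 0.0507, so its call was lost. For Rps19, a small subunit protein mutated in Diamond-Blackfan anaemia, it changed by 1.07. These calls depended on single libraries. None of the 4 genes was called with E5.5 Epi replicate 1 or 2, E5.5 VE replicate 1 or any of the E6.5 libraries left out alone.

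Within VE, 2 members rose and 7 fell from E5.5 to E6.5. Of all genes 24.7% rose and 2.49% fell. With an adjusted p alone 15 members passed, beside 31.6% of all genes. Rpl7l1 rose from 22.5 and 33.8 to 114 and 121 FPKM (log2 fold 2.05, adjusted p = 1e-04), and Rpl3 from 44.1 and 85.8 to 237 and 197 FPKM (log2 fold 1.79, adjusted p = 0.00158). Rps19 fell from 590 and 723 to 286 and 271 FPKM (log2 fold -1.23, adjusted p = 0.000362). Rpl41 fell from 5991 and 5526 to 2603 and 1901 FPKM (log2 fold -1.37). The later libraries lay outside the earlier range for all 4.

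Rps16, Rpl22l1, Rpl10, Rpl34 and Rpl27a fell by 1.47, 1.45, 1.44, 1.26 and 1.21. The canonical median was -0.50, whereas all genes had a median of 0.50, so the medians had opposite signs. With quantile normalization 1 member rose and 22 fell, beside 4.02% and 7.03% of all genes, and the canonical median was -1.01. The 6 TE markers, 2 of them keratins that epithelia share, summed to 357 and 322 FPKM in E5.5 VE and 932 and 1135 in E6.5 VE, and the part of this difference in the result was not tested. The count was 3 without E5.5 VE replicate 1, 5 without E6.5 VE replicate 2 and 14 without Ect replicate 2 and E6.5 Epi replicate 1.

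Other genes of the ribosome pathway were counted in the same comparisons. Of 34 tested ribosome biogenesis genes, which encode nucleolar processing and assembly factors, 28 rose and 0 fell in VE from E5.5 to E6.5 with a median log2 fold of 1.63, where 24.7% of all genes rose. At E5.5, 31 were higher in Epi than in VE and 0 lower (median 1.99, and 27.1% of all genes higher), and from E4.0 ICM to E5.5 VE 26 fell and 0 rose (median -1.74, and 25.7% of all genes lower). Mitochondrial ribosomal protein genes, which serve the organelle's own ribosome, gave 35 of 76 higher and 0 lower at E6.5 than at E5.5 in VE, and 39 higher and 2 lower in E5.5 Epi than VE. These lists share samples with one another and their difference from the members was not tested.

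The 11 tested RNA polymerase I genes gave 6 higher and 0 lower both in E5.5 Epi against VE and in E6.5 against E5.5 VE. Of all genes 27.1% were higher and 9.6% lower in E5.5 Epi, and 24.7% rose and 2.49% fell in VE. Of 15 genes listed for translation factors and other mRNAs known for TOP tracts, 5 rose and 2 fell in VE from E5.5 to E6.5. A tract stood at an annotated start in 1 of the 9 with a promoter window. Among 15 regulators such as Larp1, mTOR and Myc family genes, 5 rose and 0 fell there. The 7 ribosomal protein genes without a digit in the name gave 1 that fell and none that rose in the same step, with a median of -0.48, near the canonical -0.50. With quantile normalization 4.02% of all genes rose and 7.03% fell in that step, and the lists of other genes were not counted under it.

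**Figure D4:**
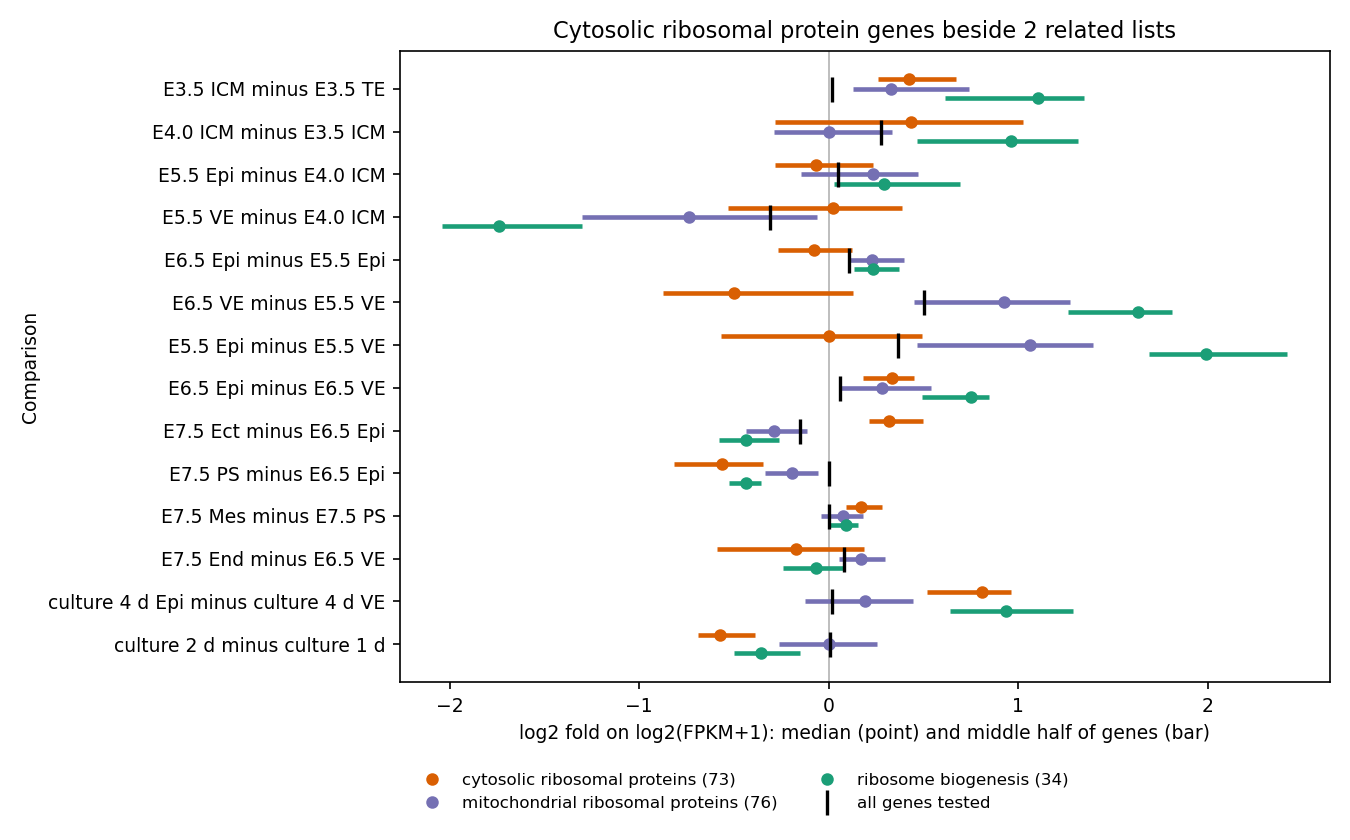
Median log2 fold on log2(FPKM+1) (points) and the range from the lower to the upper quartile (bars) for 3 gene lists in the 14 comparisons (rows), with a black tick at the median of all genes tested. In E6.5 minus E5.5 VE the canonical median is -0.50 while the ribosome biogenesis median is 1.63.

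Subgroups inside the ribosome were described by the lists given above. The 5S particle proteins Rpl5 and Rpl11, which also bind Mdm2, were called in none of the 14 comparisons by limma and had no unadjusted p under 0.05. Rpl11 was at 40.8 and 217 FPKM in E6.5 Epi and at 46.9 and 457 in Ect, and Rpl5 at 107 and 841 in Ect. Of the 8 exit tunnel proteins (Rpl4, Rpl17, Rpl39, Rpl23a, Rpl35, Rpl26, Rpl19 and Rpl31), the calls were Rpl26, Rpl4 and Rpl31 in the comparisons where they are named. Rpl17, Rpl39, Rpl23a, Rpl35 and Rpl19 were called in none.

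Among the 4 X-linked members (Rpl10, Rpl36a, Rpl39 and Rps4x), 1 call was made, the fall of Rpl10 in VE from 121 and 136 to 44.7 and 48.4 FPKM. Rps4x was at 344 and 394 FPKM in E5.5 VE and 233 and 205 in E6.5 VE, and Rpl36a at 137 and 143 and then 56.2 and 48.6. Rpl39 was at 1289 and 1179 and then 465 and 426 FPKM. These 3 were not called.

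Rpl39l and Rpl10l varied more over the in vivo libraries than most canonical members. Rpl39l, known for its role in male germ cells, was at 297 and 276 FPKM in E3.5 ICM, 190 and 264 in E4.0 ICM and 69.6 and 85.2 in E5.5 Epi. It was at 6.84 and 7.24 FPKM in E6.5 Epi and 1.95 and 1.57 in Ect, so the levels of each later group in this order lay below those of the group before it. As a share of Rpl39l plus Rpl39 it was 35.2% and 34.05% in E3.5 ICM and 0.472% and 0.0920% in Ect. In TE it was at 92.6 and 108 FPKM, and in E5.5 VE at 10.8 and 89.3, where the libraries disagree.

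Rpl10l, an intronless copy of X-linked Rpl10 that is known to stand in for it in male meiosis, followed a like course. It was at 144 and 86.8 FPKM in E3.5 ICM, 73.05 and 116 in E4.0 ICM, 26.6 and 52.7 in E5.5 Epi and 6.84 and 6.91 in E6.5 Epi. In Ect it was at 0.141 and listed at 0, and in both PS libraries it was listed at 0. In E4.0 ICM it made up 52.5% and 48.2% of the FPKM of the pair with Rpl10. TE was lower than ICM at 31.2 and 29.2 FPKM.

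Rps4y2, a copy of the Rps4 family, was at 588 and 543 FPKM in E3.5 ICM, 476 and 624 in E5.5 Epi, 297 and 334 in E6.5 Epi and 158 and 162 in Ect. It was at 98.5 FPKM or more in every in vivo library. Copies this similar cannot be told apart from their parents with certainty in these data. None of the steps from E3.5 ICM through E4.0 ICM, E5.5 Epi and E6.5 Epi to E7.5 was called for Rpl39l or Rpl10l. Their differences between ICM and TE at E3.5 were not called either.

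**Figure D5:**
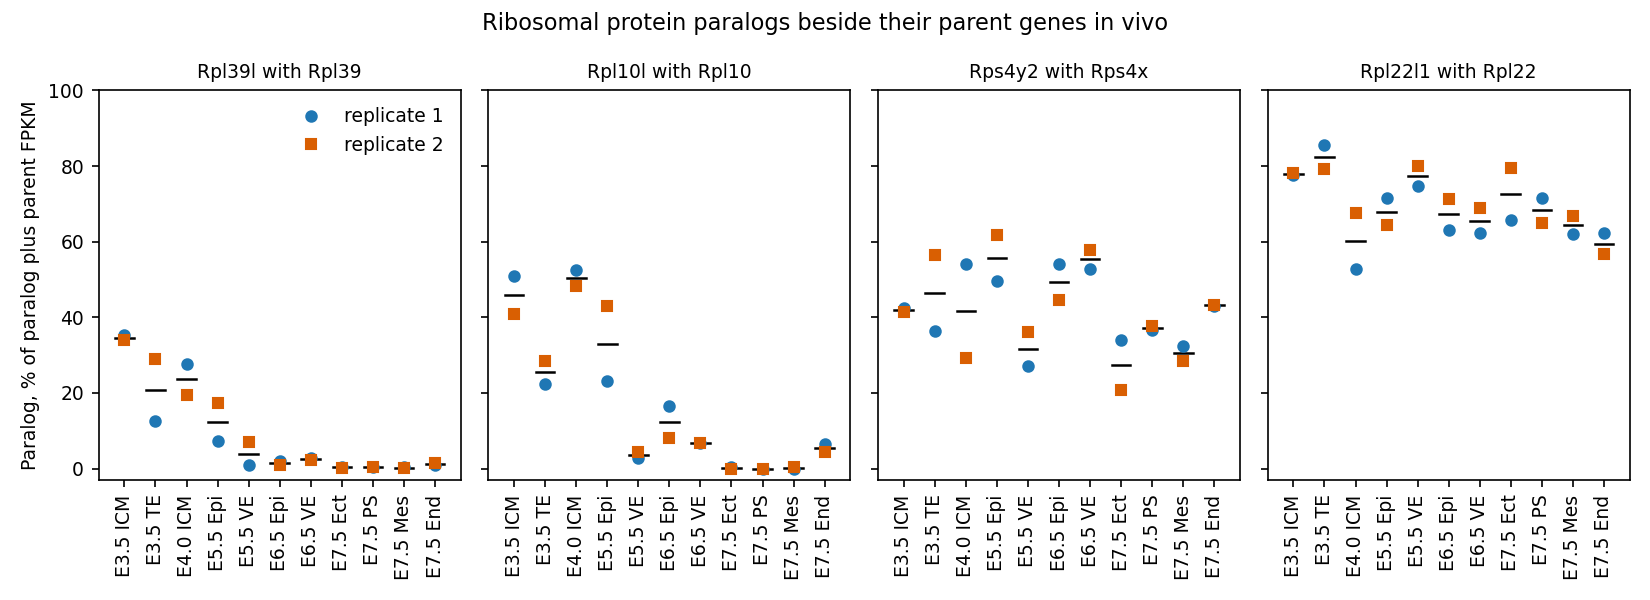
Percent of paralog plus parent FPKM contributed by the paralog (vertical axis) in the 11 in vivo groups (horizontal axis), with circles for replicate 1, squares for replicate 2 and a line at their mean. Rpl39l declines from 35.2% and 34.05% in E3.5 ICM to under 1% in Ect, PS and Mes, and Rpl22l1 stays above 50% in every library.

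Of the remaining paralogs, Rpl3l was near 0 and the others were present in every in vivo library. Rpl22l1, which can replace Rpl22, ranged from 111 to 542 FPKM and Rpl36al from 549 to 2195. Rps27l, known as a p53 target, ranged from 505 FPKM in E3.5 TE to 2931 in Ect and exceeded Rps27 in every in vivo library. Rpl7l1 was lowest in E5.5 VE and E3.5 TE and at 114 FPKM or more in both E6.5 VE, PS, Mes and End libraries. Rpl3l, known from muscle, did not exceed 0.809 FPKM and was not tested. Rps19bp1 ranged from 24.8 to 84.6 FPKM and was called in none of the 14 comparisons.

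In culture, 3 members were higher in Epi than in VE after 4 days and none lower, where 10.8% of all genes were higher and 13.6% lower. Rpl21 was at 28.3 and 31.4 FPKM in Epi and 16.7 and 4.67 in VE (log2 fold 1.62, adjusted p = 0.0289). Rpl31 and Rpl14 were higher by 1.21 and 1.05. The canonical median was 0.81, beside 0.02 for all genes, and 12 members passed with an adjusted p alone, all higher in Epi, beside 29.3% of all genes in either direction. The 7 endoderm markers summed to 3720 FPKM in VE replicate 1 and 1911 in VE replicate 2, and their part in the result was not tested. VE replicate 2 stood low for Rps27 (8.94 against 293 FPKM in replicate 1) and Rps12 (1.67 against 16.0), the 2 outlying pairs of this table. Without it the Rpl21 value was 0.801, and without VE replicate 1 it was 2.44. The calls changed with the library left out, from none to more than in the full fit. No share of all genes is given for those fits.

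From 1 to 2 days of culture only Rpl22 was called, from 63.5 and 46.3 to 11.4 and 4.19 FPKM (log2 fold -2.78, adjusted p = 1.8e-05), where 4.08% of all genes rose and 2.37% fell. Canonical members had a median of -0.57, beside 0.00 for all genes. The 2-day libraries are those that differ in their TE and ICM markers, whose part was not tested. The Rpl22 value was -3.41 without 2-day replicate 1 and -2.16 without 2-day replicate 2. More members were called in both of these fits, and without 1-day replicate 1 or Ect replicate 2. No share of all genes is given for those fits. Rpl26 in this table was at 0.00914 and 27.7 FPKM after 1 day and 0.00609 and 0.00851 after 2 days, while Rps29 was at 1076 FPKM or more in all 4 libraries.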

How the data were processed

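RNA-seq values of 30 libraries (22 in vivo, 4 and 4 in culture) were read from 3 tables of FPKM per gene, which the authors deposited. The submitters' processing notes name CASAVA 1.8, TopHat2 2.0.11, Cufflinks 2.0.2 and the build mm9, with no role given. Depth is unknown, because FPKM keeps none, so no interval for counting error is given. Gene symbols that a spreadsheet had turned into dates (27 in vivo rows) were dropped, and 22563 genes shared by the 3 tables were kept.

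The share is the members' FPKM over the library's FPKM sum, compared by exact permutation of libraries (two-sided) and, over 11 groups, by permutation of F (100000 resamples). The 13493 genes that reached 1 FPKM in 2 or more libraries entered the test on log2(FPKM+1) with limma 3.58.1 (R 4.3.3), trend on, 15 groups in 1 fit with 15 residual degrees of freedom, and Benjamini-Hochberg adjustment over all genes. A gene was called when its adjusted p was below 0.05 and its level differed 2-fold or more. A fold on this scale understates the change of low genes. On simulated data, between 9% and 19% of genes changed 2-fold and between 66% and 82% of genes changed 4-fold were called over the 14 comparisons, with 0 to 5 false calls each. Changes were placed only in genes above a set mean level, with noise independent between genes and no shift shared within a library. These figures therefore do not describe members that move together within a library.

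Members named are those outside the canonical lists, the 6 highest and 6 lowest by mean FPKM, up to 6 called per direction and comparison by size, outlying pairs (mean of at least 10 FPKM in the table), and the 5S, exit tunnel and X-linked members. Rps23, Rps3, Rps2, Rpl8, Rps3a1 and Rpl27a were named beyond this rule in a comparison, after their values were seen. Some items withheld for evaluation are not reported here. The members and lists were chosen with earlier results of these data known. Promoter windows are from RefSeq (GRCm38.p6), a build other than that of the values, and were used for sequence only, on the gene's strand. Methylation libraries of the series were not used here. Python 3.11.15, pandas 2.3.3 and scipy 1.17.1 were used.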

Additional observations from a re-analysis of the deposited data

Results flagged for a closer look

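The difference between epiblast and visceral endoderm changed from E5.5 to E6.5 for 4 members by limma's interaction term, on the log2(FPKM+1) scale, where 0.793% of all genes were called in one direction and 5.28% in the other, so the 4 of 81 are no more than the background. It changed by -1.57 for Rpl7l1 (adjusted p = 0.0301), by -1.47 for Rps4y2 (adjusted p = 0.0344) and by -1.07 for Rpl4 (adjusted p = 0.0425, and 0.0507 with a replicate block, which ends that call). For Rps19 it changed by 1.07 (adjusted p = 0.0412). In E5.5 VE Rpl7l1 was at 22.5 and 33.8 FPKM, Rps4y2 at 128 and 221 and Rpl4 at 487 and 699, all below the epiblast libraries of that stage, while Rps19 at 590 and 723 was above them. None of the 4 was called when any of the 8 libraries other than E5.5 VE replicate 2 was left out alone.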

How the results depend on the processing

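Among members called and named, none changed sign under an alternative. Leaving out 1 library did change the sign of 4 differences in share whose groups overlap, which ran from -1.41 to 7.66 for Ect against E6.5 Epi, from -2.88 to 0.0564 for E6.5 against E5.5 Epi, from -0.225 to 0.811 for E5.5 Epi against E4.0 ICM and from -0.917 to 0.666 for End against E6.5 VE. An adjusted p alone gave 6 members called for E3.5 ICM against TE, 3 for E5.5 Epi against E4.0 ICM, 15 for E6.5 against E5.5 VE, 19 for E5.5 Epi against VE, 2 for E6.5 Epi against VE and 12 for the 4-day Epi against VE. A pseudocount of 0.1 gave 2 for PS against Epi. With no filter on low values 1 was called in the 4-day comparison and 2 in the interaction. Quantile normalization gave 1 for E3.5 ICM against TE, 23 for E6.5 against E5.5 VE, 2 for 2 days against 1 day and 1 in the interaction. Fits of only the groups compared gave 10 for E4.0 against E3.5 ICM, 0 for E5.5 Epi and 2 for E5.5 VE against E4.0 ICM, 5 for E5.5 Epi against VE, 3 for PS against Epi, 10 for End against VE, 0 for both culture comparisons and 2 in the interaction, where fewer libraries set the spread. Leaving out libraries (here 1 library of an arm is assumed to vary like the other groups) gave 0 to 5 for E3.5 ICM against TE, 9 to 24 for E4.0 against E3.5 ICM, 0 to 3 for E5.5 Epi and 9 to 20 for E5.5 VE against E4.0 ICM, 3 to 14 for E6.5 against E5.5 VE, 5 to 13 for E5.5 Epi against VE, 0 to 1 at E6.5, 0 to 5 for Ect and 0 to 21 for PS against Epi, 0 to 4 for End against VE, 0 to 17 and 1 to 10 for the culture comparisons and 0 to 4 in the interaction. The high ends of 24, 14, 13, 21 and 4 (End) are without Ect replicate 2 and E6.5 Epi replicate 1, chosen after seeing the data. Without Rpl41 the share differed by 1.03 points between E5.5 VE and E4.0 ICM, by -4.50 between E6.5 and E5.5 VE and by -0.981 between E5.5 Epi and VE, the last -2.99 with 6 more ribosomal proteins. With canonical members only the 4-day difference was 3.56. Outlying pairs numbered 86 at a threshold of 1.5 and 27 at 3, against 52. The labels do not say that a replicate number marks a shared source, and the libraries were treated as unpaired. The correlation of same-numbered deviations lay between -0.0867 and 0.438 (Ect against E6.5 Epi) over 14 comparisons and exceeded 0.1 in 3, so a pairing of these libraries cannot be told. A replicate block moved no comparison's count by over 1.5 times and ended 1 named call, Rpl4 in the interaction. Among named members' values, 145 missed the threshold under an alternative and 456 stayed on their side. Where a count under an alternative stands without a share of all genes, it describes how stable the calls are and not the members. The causes of these shifts were not tested.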
